A study of Mus musculus with 2 samples.

Results

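The 10 genes described here encode the contractile proteins of smooth muscle and of myofibroblasts, together with Pdgfrb, a receptor of the mural cells around vessels. They were chosen by symbol (Acta2, Tagln, Myl9, Cnn1, Tpm2, Myh11, Actg2, Lmod1, Mylk and Pdgfrb), and all 10 were present among the 24346 symbols listed for each library. The libraries were made from skin wounds of C57BL/6J pups. One came from WT mice and the other from PU.1-/- mice (labelled PU.1_KO), which lack the transcription factor PU.1 in all cells. The pups were 1 day old when a full-thickness dorsal wound was made, and the tissue was taken 24 h later. The design text calls the wounds excisional, whereas the methods describe incisions of 1 cm. Each genotype had 1 library, and neither the number nor the sex of its pups was stated. The comparison asks which wound transcripts depend on the inflammatory cells that PU.1-/- mice lack.

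Smooth muscle cells contract when myosin light chain kinase phosphorylates the regulatory light chain of myosin, which then pulls on filaments of smooth muscle actin. Tropomyosin, calponin, transgelin and leiomodin sit on or shape the actin filament. In skin these genes are known from vessel walls and the arrector pili muscles of hair follicles, and Acta2 and Tagln are also the usual markers of the myofibroblasts that contract a wound. Serum response factor (SRF) and its myocardin-related partners switch on many of these genes through a DNA element called the CArG box.

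Values are FPKM, fragments scaled to transcript length and to sequencing depth. With 1 library per genotype there is no spread between animals and no test, so each difference is between these libraries only. The 95% counting intervals given below rest on estimated reads, at depths of about 1.38e+07 reads for WT and 1.58e+07 for PU.1-/-, and cover counting error only. Spi1, the gene of PU.1, stood at 35.4 FPKM in WT against 1.45 in PU.1-/-. Xist was listed at 0 in WT and at 9.48 FPKM in PU.1-/-, and the Y-linked Ddx3y at 21.0 FPKM in WT and at 0 in PU.1-/-. The sex of the pups and the genotype therefore cannot be told apart. In such bulk tissue, fewer cells of a type and less RNA per cell cannot be told apart either.

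Of the 10 contractile genes, 9 differed by less than 1.5-fold between the wounds, against 87.6% of the 12958 genes with a mean of at least 1 FPKM. The exception was Tpm2, a tropomyosin, which was at 1.61 times its WT level in the PU.1-/- wound. Among all these genes 5.03% were higher by 1.5-fold or more and 7.39% were lower. None of the 10 was lower by that much. None reached 2-fold in either direction, against 1.42% higher and 3.83% lower among all genes. Less than 25% above or 20% below their WT level lay 7 of the 10 genes, against 71.2% of all genes. Cnn1 and Myh11 were lower by 20% or more (15.3% of all genes), and Tpm2 alone was higher by 25% or more (13.5%). Expressed as log2 of PU.1-/- over WT, the 10 genes had a median ratio of -0.03, with 5 genes above 0 and 5 below, and the quartiles over all genes were -0.19 and 0.18. The macrophage markers were lower in all 10 of 10 genes, from Cd68 (43.9 FPKM in WT against 4.12 in PU.1-/-) to Tyrobp (196 FPKM and listed at 0). The 10 macrophage markers together summed to 721 FPKM in WT against 12.4 in PU.1-/-.

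**Figure D1:**
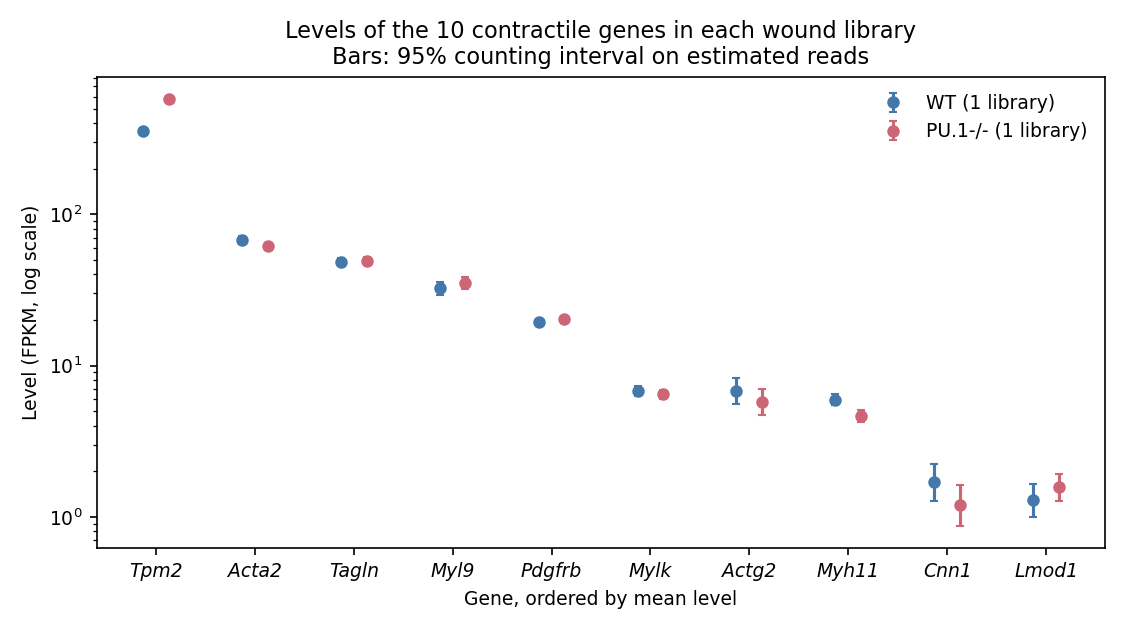
Level of each contractile gene in FPKM on a log scale, with blue points for the WT library and red points for the PU.1-/- library, and bars for the 95% counting interval on estimated reads. The points of Tpm2 lie farthest apart, at 357 FPKM in WT against 576 in PU.1-/-, followed by those of Cnn1 and Myh11, and the bars of Cnn1 overlap.

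The genes covered a wide range of levels. In the WT library the order from high to low was Tpm2, Acta2, Tagln, Myl9, Pdgfrb, Mylk, Actg2, Myh11, Cnn1 and Lmod1. The order was the same in the PU.1-/- library except that Lmod1 stood above Cnn1. The counting intervals of Mylk and Actg2 overlapped in both libraries, as did those of Actg2 and Myh11 and those of Cnn1 and Lmod1, so these neighbours were not separated at this depth. All other neighbours in the order had intervals that were apart. Tpm2 alone made up 65.1% of the summed FPKM of the 10 genes in WT and 75.6% in PU.1-/-. Without it, the other 9 genes summed to 191 FPKM in WT against 186 in PU.1-/-, which is a ratio of 0.975.

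Acta2 encodes smooth muscle alpha-actin, the standard marker of myofibroblasts, on the minus strand of chromosome 19 (mm10, chr19:34240336-34255585). It had 68.1 FPKM in WT against 61.9 in PU.1-/-, and a PU.1-/- to WT ratio of 0.910 (95% counting interval 0.851 to 0.972). The interval lay below 1, but the PU.1-/- level was 91.0% of that in WT, at percentile 30.7 of the log2 ratios of all genes. Its upper end was -0.04 in log2, smaller in size than the 0.05 by which equal FPKM sums moved the median of all genes. Whether the interval excludes 1 therefore depends on the scaling. Actg2 encodes the gamma-actin of enteric smooth muscle and lies on chromosome 6 (chr6:83512909-83536251). It was much less abundant, with 6.79 FPKM in WT against 5.74 in PU.1-/-, and a PU.1-/- to WT ratio of 0.845 (0.639 to 1.12). Its interval held 1, on about 106 and 103 reads. Both smooth muscle actins were thus slightly lower in the PU.1-/- library at the deposited scaling, and for Actg2 the difference was not detectable at this depth.

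Myh11, the smooth muscle myosin heavy chain on chromosome 16 (chr16:14194527-14292188), is a strict marker of differentiated smooth muscle. It had 5.96 FPKM in WT against 4.67 in PU.1-/-, and a PU.1-/- to WT ratio of 0.783 (0.690 to 0.889). It was the lowest ratio among the genes whose interval excluded 1. Myl9 encodes the regulatory light chain that the kinase phosphorylates, on chromosome 2 (chr2:156775408-156781657). It had 32.4 FPKM in WT against 35.2 in PU.1-/-, and a PU.1-/- to WT ratio of 1.09 (0.953 to 1.24). Mylk, the kinase itself, on chromosome 16 (chr16:34745199-35002436), had 6.83 FPKM in WT against 6.45 in PU.1-/-, and a PU.1-/- to WT ratio of 0.945 (0.853 to 1.05). The kinase and its substrate thus differed by less than 10%, in opposite directions, and each interval held 1. An exon of E130310I04Rik, annotated on the opposite strand, overlaps an exon of Mylk, and it had 1.68 FPKM in WT against 1.28 in PU.1-/-.

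Tagln, or transgelin, binds actin filaments and is the other common myofibroblast marker, on chromosome 9 (chr9:45929628-45936058). It had 48.5 FPKM in WT against 49.2 in PU.1-/-, and a PU.1-/- to WT ratio of 1.01 (0.928 to 1.11), the smallest difference of the 10 genes. Its exons overlap those of Pcsk7 on the opposite strand, a gene at 10.1 FPKM in WT against 9.05 in PU.1-/-. The libraries were stranded, but whether the counting used strand is not given in the sources used here, so the reads of the pair may be mixed. Cnn1, the smooth muscle calponin that restrains myosin, also lies on chromosome 9 (chr9:22099221-22109221). It had 1.70 FPKM in WT against 1.201 in PU.1-/-, and a PU.1-/- to WT ratio of 0.705 (0.457 to 1.08), the lowest of the set. Only about 51 and 42 reads stood behind these values, and the smallest whole read numbers that give the same ratio, 21 and 17, have an interval of 0.349 to 1.40. Lmod1, a leiomodin that nucleates actin filaments in smooth muscle, on chromosome 1 (chr1:135324813-135368065), had 1.29 FPKM in WT against 1.58 in PU.1-/-. Its ratio of 1.22 (0.883 to 1.70) came from about 67 and 94 reads. For Cnn1 and Lmod1, the least abundant members, the intervals held 1, so neither difference was detectable at this depth.

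Tpm2, or beta-tropomyosin, lies along actin filaments in smooth and skeletal muscle alike and is encoded on chromosome 4 (chr4:43513726-43523583). It had 357 FPKM in WT against 576 in PU.1-/-, and a PU.1-/- to WT ratio of 1.61 (1.57 to 1.66) and a log2 ratio of 0.69, at percentile 96.4 of all genes. Its level was 5.24 times that of Acta2 in WT and 9.30 times in PU.1-/-. Pdgfrb, the receptor for platelet-derived growth factor that recruits pericytes to vessels, lies on chromosome 18 (chr18:61045127-61085067). It had 19.3 FPKM in WT against 20.2 in PU.1-/-, and a PU.1-/- to WT ratio of 1.04 (0.971 to 1.12). Over the 10 genes, the interval held 1 for 7, lay below 1 for Acta2 and Myh11, and lay above 1 for Tpm2. These positions rest on read numbers estimated from transcript length and on the deposited scaling. The width of an interval follows the read number, and the same split over all genes is not given here. The split is therefore not read as a trait of these genes.

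**Figure D2:**
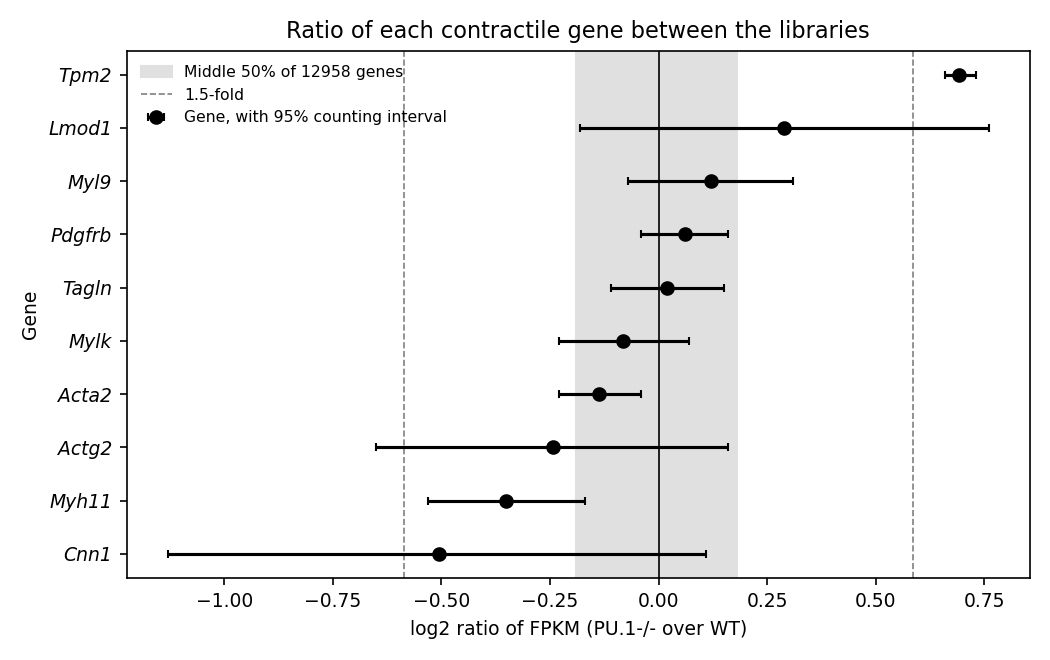
Log2 ratio of FPKM (PU.1-/- over WT) of each contractile gene, with its 95% counting interval, the middle 50% of all genes with a mean of at least 1 FPKM (grey band, -0.19 to 0.18) and dashed lines at 1.5-fold. Tpm2, at 0.69, is the only gene beyond a dashed line, and Cnn1, at -0.50, has the widest interval.

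Tpm2 was compared with the transcripts of skeletal muscle, since mouse skin carries a sheet of skeletal muscle, the panniculus carnosus, below the dermis. All 12 markers of skeletal muscle were higher in the PU.1-/- library, with a median log2 ratio of 0.81 and a range from 0.52 to 1.19. Of the 12, 11 passed 1.5-fold, against 5.03% of all genes. Tnni2, a troponin of fast fibres, was at 1207 FPKM in WT against 1729 in PU.1-/-, and Myh3, the embryonic myosin heavy chain, at 17.8 FPKM in WT against 36.5 in PU.1-/-. Tpm2 lay within this range, and the other 9 contractile genes, from -0.50 to 0.29, lay below every one of the 12 markers. The part of skeletal muscle in the value of Tpm2 was not tested, and the gene-level FPKM does not separate the transcripts of Tpm2 made in smooth and skeletal muscle.

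The contractile genes were next set beside their paralogs, several of which are used by skeletal or cardiac muscle or by most cells. Among the actins, the skeletal Acta1 was at 3224 FPKM in WT against 5955 in PU.1-/-, and the cardiac Actc1 at 51.4 and 117 FPKM. The cytoplasmic actins went the other way, Actb from 1010 FPKM in WT to 662 FPKM in PU.1-/- and Actg1 from 1058 to 767 FPKM. Acta2 and Actg2 lay between these pairs. Acta2 made up 1.26% of the FPKM of the actin family in WT and 0.818% in PU.1-/-, and Acta1 made up 59.5% and 78.7%. The share of Acta2 therefore differed more than its level did, because the denominator holds Acta1.

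The leiomodins, kinases and tropomyosins, whose lists held striated muscle members, were ordered in like manner, apart from Mylk3. Among the leiomodins, the striated muscle genes Lmod2 and Lmod3 had log2 ratios of 1.02 and 1.14, against 0.29 for Lmod1. Among the kinases, the skeletal Mylk2 was at 4.73 FPKM in WT against 12.8 in PU.1-/-, a log2 ratio of 1.44, against -0.08 for Mylk. Mylk4 had a log2 ratio of 0.86, which fell below 1.5-fold with a floor or a pseudocount of 1 FPKM. Mylk3 went the other way, at -0.85, but was below 1 FPKM in both libraries, and its interval held 1. Among the tropomyosins, Tpm1, another gene of striated and smooth muscle, had a log2 ratio of 0.58 beside the 0.69 of Tpm2, while Tpm3 (-0.43) and Tpm4 (-0.26), which most cells use, were lower.

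Among the listed myosin heavy chains, light chains, calponins and transgelins and PDGF receptors, no gene with a mean of at least 1 FPKM passed 1.5-fold. Of all genes, 87.6% lay within it. The myosin lists left out striated muscle genes, which stood among the skeletal muscle markers. Of those, the heavy chains Myh3 (1.04) and Myh8 (1.01) and the light chain Mylpf (0.66) were higher by more than 1.5-fold. Of the listed myosin heavy chains, Myh9 (-0.15), Myh10 (-0.01) and Myh14 (-0.13) had log2 ratios closer to 0 than Myh11 (-0.35). Of the light chains, Myl6, the abundant essential light chain, was at 1265 FPKM in WT against 917 in PU.1-/-, a log2 ratio of -0.46. Myl12b (-0.26) and Myl12a (-0.04) were also below 0, and Myl6b (0.30), an essential light chain also found in slow skeletal muscle, and Myl9 (0.12) above it. Tagln2, the transgelin of leukocytes and many other cells, was at 554 FPKM in WT against 431 in PU.1-/-, whereas Tagln hardly differed. Cnn2 (-0.42) and Cnn3 (0.24) lay on either side of 0, and Tagln3 was below 1 FPKM on average. Pdgfra, the receptor that marks fibroblasts, had a log2 ratio of 0.38 beside the 0.06 of Pdgfrb.

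**Figure D3:**
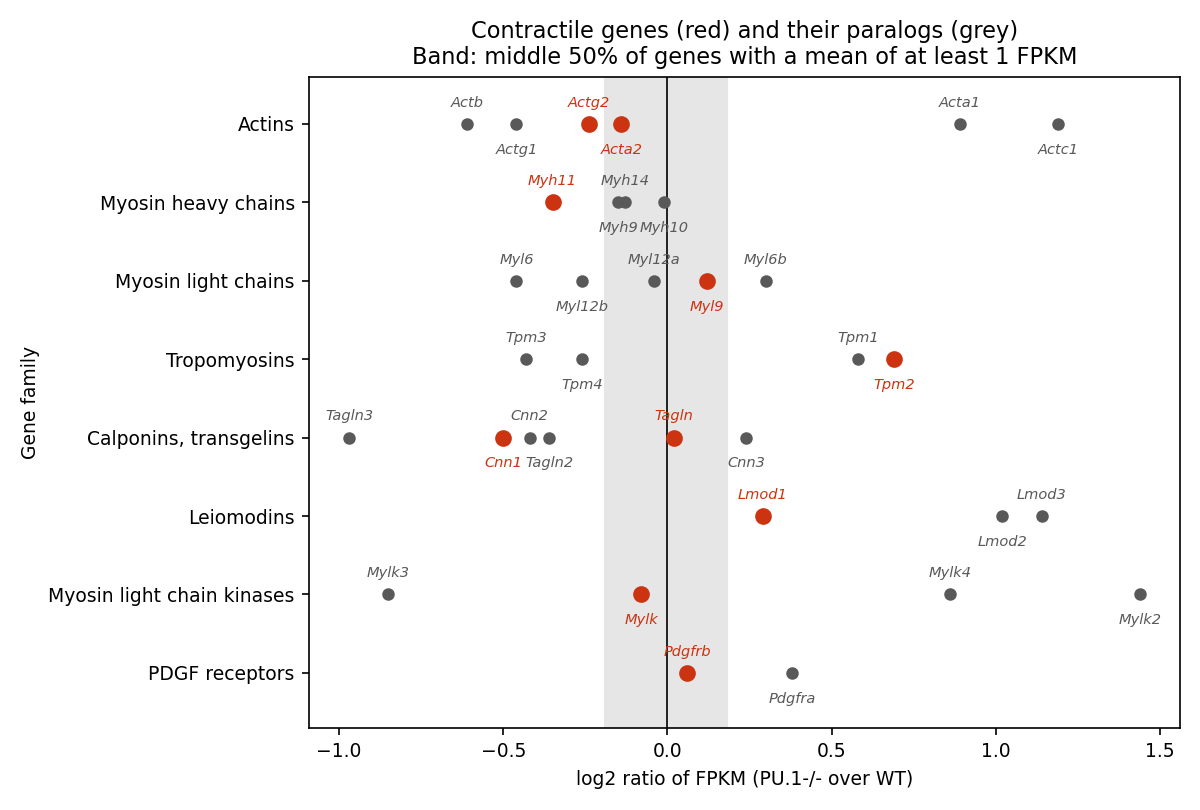
Log2 ratio of FPKM (PU.1-/- over WT) of each contractile gene (red) and its paralogs (grey), 1 row per gene family, with the middle 50% of all genes as a grey band. The myosin rows leave out the striated muscle genes Myh3, Myh8 and Mylpf. The striated muscle paralogs Acta1, Actc1, Lmod2, Lmod3 and Mylk2 lie between 0.89 and 1.44, the cytoplasmic actins Actb and Actg1 at -0.61 and -0.46, Tagln3 and Mylk3 had means below 1 FPKM, and the red points other than Tpm2 lie from -0.50 to 0.29.

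Reads shared between such related genes could blur the comparison, so the transcript sequences were compared in windows of 75 bases, the length of the reads. Only the same strand was searched, so the opposite-strand overlaps of Tagln and Mylk described above are not covered. On that strand, in none of the 10 members did any window occur exactly in a GENCODE transcript of another gene. With up to 2 mismatches, no window of Acta2, Actg2 or Tpm2 was matched in a transcript of a family paralog, and the only matches were 77 of 6475 windows of Myh11 (1.19%), to Myh9 and Myh10. The striated muscle myosins Myh3, Myh8 and Mylpf were not among the paralogs searched with mismatches.

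Other genes of the smooth muscle programme were then described. Of 17 other smooth muscle genes with a mean of at least 1 FPKM, 6 were higher in the PU.1-/- library by 1.5-fold or more (background 5.03%) and none was lower, with a median log2 ratio of 0.11. The skeletal muscle markers were all higher too, and the part of skeletal muscle in the values of these genes was not tested. The highest were Synpo2, an actin-binding protein also found in the Z-discs of striated muscle, at 2.08 FPKM in WT against 3.96 in PU.1-/-, Prkg1, the cGMP-dependent kinase that relaxes smooth muscle, at 2.06 and 3.80 FPKM, and Pgm5, a protein of muscle adhesion sites, at 1.95 and 3.51 FPKM. The lowest were Aoc3, an amine oxidase of vascular smooth muscle and adipocytes, at 9.85 FPKM in WT against 7.08 in PU.1-/-, and Ppp1r14a, an inhibitor of myosin phosphatase, at 12.9 and 9.89 FPKM. Csrp1 had 141 and 129 FPKM. Kcnmb1, Itga8 and Cacna1c had a mean below 1 FPKM.

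Of 13 pericyte genes, 3 were higher by 1.5-fold or more (5.03% of all genes) and none lower (7.39%), with a median log2 ratio of 0.01. Higd1b had the highest ratio, at 1.246 FPKM in WT against 4.10 in PU.1-/-, but on about 9 and 35 reads, with an interval of the ratio from 1.56 to 7.71. Abcc9, a subunit of potassium channels in mural cells and muscle, was at 4.67 and 7.78 FPKM, and Ndufa4l2 at 87.8 and 134 FPKM. Rgs5, a classical pericyte marker, was at 16.5 FPKM in WT against 13.6 in PU.1-/-, Gja4 at 7.08 and 5.53 FPKM, and Foxs1 at 2.75 and 2.17 FPKM. Of 10 endothelial markers, 1 was higher by 1.5-fold or more (5.03% of all genes), Vwf, at 2.82 FPKM in WT against 5.90 in PU.1-/-. The endothelial median log2 ratio was 0.15. Pdgfrb, at 0.06, lay between the pericyte and endothelial medians.

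Among the genes known to control the contractile programme, none of 15 passed 1.5-fold, where 87.6% of all genes lay within it. Srf had 21.98 FPKM in WT against 20.9 in PU.1-/-, and its partners Mkl1 (the older symbol of Mrtfa) and Mkl2 (Mrtfb) had log2 ratios of 0.02 and 0.10. Myocd, the cofactor restricted to muscle, was listed below 1 FPKM, at 0.820 FPKM in WT against 0.697 in PU.1-/-, and Foxf1 was also below 1 FPKM. The largest positive log2 ratios were those of Smad3 (0.39), a transducer of TGF-beta signals, and Wwtr1 (0.37), a coactivator of the TEAD factors. The partners Tead1 (0.28) and Yap1 (0.23) were next. Klf4, which represses smooth muscle genes and is abundant in epidermis, had the lowest, -0.32, at 215 FPKM in WT against 172 in PU.1-/-. Smad2, Smad4, Gata6, Elk1, Rhoa, Rock1 and Rock2 lay between -0.17 and 0.21.

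Of 15 matrix and adhesion genes of myofibroblasts with a mean of at least 1 FPKM, none passed 1.5-fold, against 87.6% of all genes within it, and the median log2 ratio was 0.12. Fn1, fibronectin, was lowest, at 62.6 FPKM in WT against 44.7 in PU.1-/-, followed by Lox, a collagen cross-linking enzyme, at 74.0 and 62.2 FPKM, and Tnc, tenascin C, at 204 and 181 FPKM. Col8a1 was highest, at 4.46 and 6.495 FPKM, followed by Fap, at 1.82 and 2.56 FPKM, and Col12a1, at 30.1 and 40.2 FPKM. Fibroblast markers had a median log2 ratio of 0.26, with Mfap5 lower (-0.91), and keratinocyte markers one of 0.21, with Krt15 higher (0.61). The 10 contractile genes, at -0.03, had the lowest median of these cell-type and programme lists apart from those of macrophages and adipocytes. The pericyte genes, at 0.01, were close to them, so this rank does not set the contractile genes apart.

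**Figure D4:**
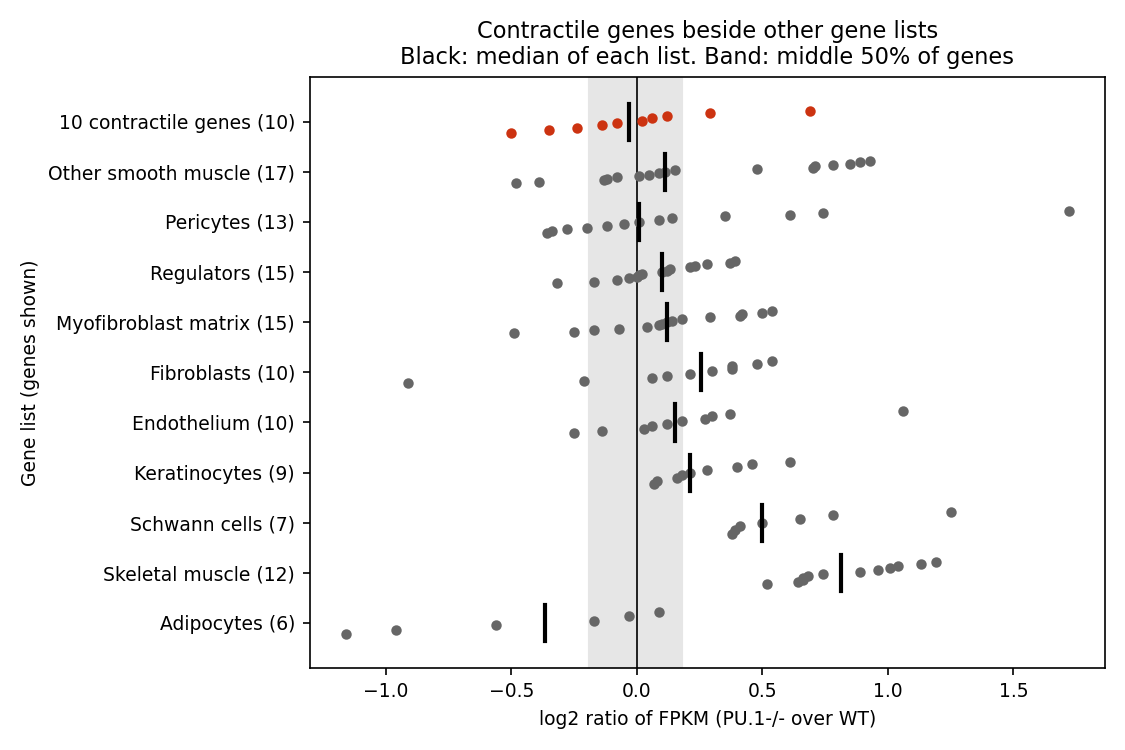
Log2 ratio of FPKM (PU.1-/- over WT) of the contractile genes (red) and of the genes of each other list (grey) with a mean of at least 1 FPKM, with the median of each list in black and the middle 50% of all genes as a grey band. The median of the contractile genes is -0.03 and that of skeletal muscle 0.81, and the macrophage list, at -6.93, is not drawn.

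Promoters were read to see whether the members share the SRF element. RefSeq windows of GRCm38.p6 (the assembly of mm10), from 250 bases before to 50 bases after an annotated start, were found for 6 of the 10 genes, Acta2, Myl9, Cnn1, Tpm2, Lmod1 and Mylk. Except for Lmod1, the starts used lie inside the gene spans given above, most deeply for Mylk, and the boxes of Acta2 therefore fall within its span. The windows of Tagln, Myh11, Actg2 and Pdgfrb were not analysed here. A full CArG box was present in the window of Myl9 alone, against 1.63% of all 32817 windows. When 1 G or C was allowed among the 6 inner A or T positions, Acta2 and Myl9 each held 2 boxes, against 9.99% of all windows with 1 or more. The other 4 windows held none. The sequence CATTCC, the core of the MCAT element bound by TEAD factors, was present on one strand or the other in the windows of Acta2, Lmod1 and Mylk, against 14.7% of all windows, and overlapped no CArG box. The boxes of Acta2 and Myl9, the only ones found, are shown in capitals with the bases around them, written from 5′ to 3′ on the strand of the gene.
Acta2, chr19:34255433-34255472, minus strand: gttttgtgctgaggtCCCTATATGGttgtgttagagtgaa
Acta2, chr19:34255383-34255422, minus strand: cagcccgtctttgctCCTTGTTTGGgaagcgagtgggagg
Myl9, chr2:156775288-156775327, plus strand: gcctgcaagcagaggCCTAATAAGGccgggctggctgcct
Myl9, chr2:156775350-156775389, plus strand: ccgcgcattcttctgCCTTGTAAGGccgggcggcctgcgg

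The 2 boxes of Acta2 began at positions -84 and -34 from the annotated start, and each held 1 G or C inside. The full box of Myl9 began at position -161 and its other box at -99. The genes with a box had log2 ratios of -0.14 (Acta2) and 0.12 (Myl9), and those without had -0.50 (Cnn1), -0.08 (Mylk), 0.29 (Lmod1) and 0.69 (Tpm2). A match in these letters is not evidence of binding, and no match says nothing of SRF elsewhere at the gene, such as in the first intron.

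**Figure D5:**
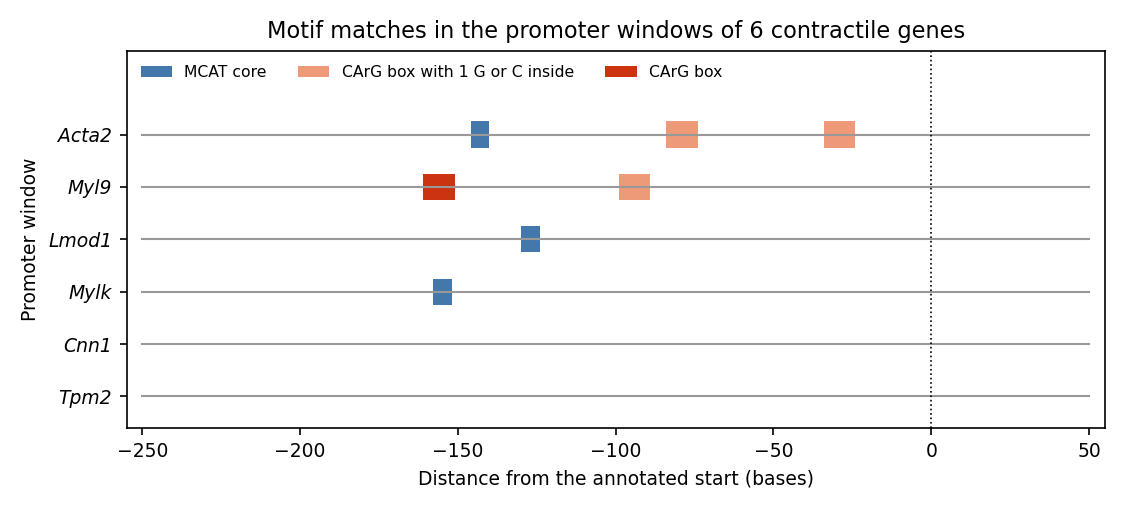
Promoter windows of 6 contractile genes, from 250 bases before to 50 bases after the annotated start (dotted line), with a full CArG box in red, CArG boxes with 1 G or C inside in orange and MCAT cores in blue. Acta2 and Myl9 hold 2 boxes each, and Cnn1 and Tpm2 hold no match of either kind.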

How the data were processed

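RNA from skin wounds of WT and PU.1-/- pups was made into stranded mRNA libraries, 1 per genotype, and sequenced from one end for 75 bases. The authors mapped the reads to mm10 and deposited FPKM values from Cuffnorm 2.2.1. The submitters' processing notes also name TopHat2 2.1.1, Bowtie2 2.2.8, SAMtools 0.1.18 and Cuffdiff 2.2.1. The annotation is not given in the sources used here.

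Ratios were taken from the deposited FPKM values after values below 0.1 FPKM were raised to 0.1, and genes were described where the mean of both libraries was at least 1 FPKM. Calls were made at 1.5- and 2-fold, and at 25% above or 20% below WT. With 1 library per genotype no test was run, and the groups were compared as single values.

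FPKM of low genes move in steps of whole reads. Among genes below 2 FPKM in WT, 451 shared the commonest ratio between libraries, taken as that of equal read numbers, and 1 read was worth 1.149 times as many FPKM in WT as in PU.1-/-. Depth came from 649 genes whose read numbers and transcript length (GENCODE M21, longest transcript linked to RefSeq, less an assumed fragment of 200 bases) gave the commonest value. Reads were then estimated for genes with a transcript of at least 300 bases (89.1% of symbols), and exact Clopper-Pearson intervals at 95% were taken. A transcript longer than the one the authors used makes an interval too narrow. The functions were tested on simulated data.

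The members and lists were chosen with earlier results of these data known. The genes named are the members, their paralogs, the regulators, Spi1, Xist and Ddx3y. In each other list they come from the 3 lowest and 3 highest ratios among genes with a mean of at least 1 FPKM. Not all of these are named in the text, and none is for the Schwann cells. Pcsk7 and E130310I04Rik were added for their overlap with members. Tests over proteins were not run, and transcript windows were compared instead, a choice made after the data were seen. Alternatives of low values, scaling, filter, fold and members were tried. The software comprised scipy 1.17.1, pandas 2.3.3, matplotlib 3.10.9 and numpy 2.4.6 under Python 3.11.15.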

Additional observations from a re-analysis of the deposited data

How the results depend on the processing

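The log2 ratios of the 10 contractile genes were recomputed with a floor of 1 FPKM, a pseudocount of 1 FPKM, equal FPKM sums, the median of genes of at least 10 FPKM set to 0, and equal upper quartiles. Of the 50 values, 49 stayed inside their counting interval, and Tpm2 was at 0.74 with equal FPKM sums. The floor of 1 FPKM could move no member, since each was above 1 FPKM in both libraries. The median and upper quartile scalings moved the median of all genes by 0.01 only, so much of this agreement was fixed in advance. No member changed sign, but the median of the 10 genes became 0.02 with equal FPKM sums and that of the myosin light chains 0.01. Cnn1 ranged from -0.50 to -0.30 and Lmod1 from 0.17 to 0.33. The scalings moved the median of all genes by at most 0.05. This was with equal FPKM sums, where the interval of Acta2, with an upper end of -0.04 in log2, would no longer exclude 1. The 1.5-fold and 2-fold counts were the same with each of these, and at 20% below WT 2 genes (Cnn1 and Myh11) were lower instead of 0. Leaving out Tpm2 gave a median of -0.08. Among the other lists, the macrophage median became -4.92 with the floor of 1 FPKM and -4.57 with the pseudocount, and that of the myosin light chain kinases 0.57 and 0.45, by construction, since both shrink the ratio of low values. With equal FPKM sums the tropomyosin median became 0.21 and the skeletal muscle median 0.86, as all ratios move by the same amount. No paired analysis was possible because each genotype has 1 library, and no library could be left out. Depth limits Cnn1, Lmod1 and Actg2 most.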

Other observations

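The adipocyte markers were the only list besides macrophages with a median below -0.30 among the cell-type lists, at -0.37 over 6 genes. Plin1 and Cidec, proteins of the lipid droplet, were at 47.2 and 71.1 FPKM in WT, against 21.1 and 36.6 in PU.1-/-, and Adipoq at 112 and 75.7 FPKM. The other 3 genes differed less: the fatty acid binding protein Fabp4, the most abundant of the 6, was at 3408 and 3037 FPKM, the lipoprotein lipase gene Lpl at 103 and 101 FPKM, and Pparg at 14.05 and 14.996 FPKM. Aoc3, listed above among smooth muscle genes, is also expressed by adipocytes, and its log2 ratio was -0.48.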
